A study of Mus musculus with 4 samples.

Results

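Naive mouse embryonic stem cells (ESCs) are held in their state by a small network of transcription factors, and the levels of 10 genes of that network were compared between control and lactate-treated ESCs. The genes were Pou5f1, Sox2, Nanog, Klf2, Klf4, Klf5, Esrrb, Tfcp2l1, Tbx3 and Zfp42, taken by symbol from the 55335 genes of the deposited tables. All cells were of the line AB2.2, grown on mouse embryonic fibroblast (MEF) feeders in serum medium with leukemia inhibitory factor (LIF) and with CHIR99021, which inhibits the kinase GSK3, and PD0325901, which inhibits the kinase MEK. Both groups carried all of these agents. The control group had 2 RNA-seq libraries, and the lactate group had 2 libraries from cells given 50 mM lactate for 24 h. The data describe 1 cell line, total RNA was extracted with no stated removal of the feeders, and nothing says that the 2 libraries of a group came from separate cultures, so the p-values measure only the spread between these samples, which may be technical.

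As background, Oct4 (the product of Pou5f1) and Sox2 bind DNA together at the enhancers of pluripotency genes, their own among them, and Nanog acts beside them. LIF acts through Stat3, which feeds into Klf4 and Tfcp2l1. Inhibition of GSK3 relieves the repressor Tcf7l1 and so frees Esrrb, Tfcp2l1 and Klf2, and inhibition of MEK blocks the FGF and ERK signal that drives cells out of the naive state. Klf2, Klf4 and Klf5 are zinc finger proteins that share many binding sites and can partly stand in for each other.

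None of the 10 genes was called changed upon lactate supplementation, where a call needed a Benjamini-Hochberg adjusted p under 0.05 in edgeR's quasi-likelihood test and a change of more than 2-fold. Of all 18661 genes tested, 168 (0.9%) were called, 103 upregulated and 65 downregulated (108 and 40 when scaled by library totals alone), and 185 (0.991%) had an adjusted p under 0.05 at any fold, none of them among the 10. At an unadjusted p under 0.05 there were 6 of the 10 genes, against 23.1% of all genes. Of these, 5 were higher with lactate (Sox2, Zfp42, Tbx3, Klf4 and Klf5; 11.7% of all genes) and 1 was lower (Klf2, whose p was just under the threshold; 11.4% of all genes). The unadjusted p-values of edgeR were 0.00567 for Sox2, 0.0102 for Zfp42, 0.0184 for Tbx3, 0.0230 for Klf4 and 0.0314 for Klf5. DESeq2 also called none of the 10, with 358 genes called (2.11% of those it gave an adjusted p), and at any fold it gave 1 of them, Klf5, an adjusted p under 0.05 (4.99% of genes).

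For 9 of the 10 genes the whole 95% interval of the log2 fold change lay inside a 2-fold change either way, which was so for 63.6% of all genes tested. The exception was Klf5. The control and lactate libraries did not overlap for 7 of the 10 genes, against 52.9% of all genes. These were 5 genes higher with lactate (27% of all genes), the same 5 as above, and 2 lower (25.9% of all genes), Klf2 and Esrrb. The median log2 fold change was 0.23 over the 10 genes and 0.01 over all genes tested. Levels of a gene between libraries are given in CPM, its raw counts scaled to the TMM-adjusted size of the library. All log2 fold changes here are lactate over control from edgeR, with the standard error (SE), for 2 libraries against 2, unless said otherwise.

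**Figure D1:**
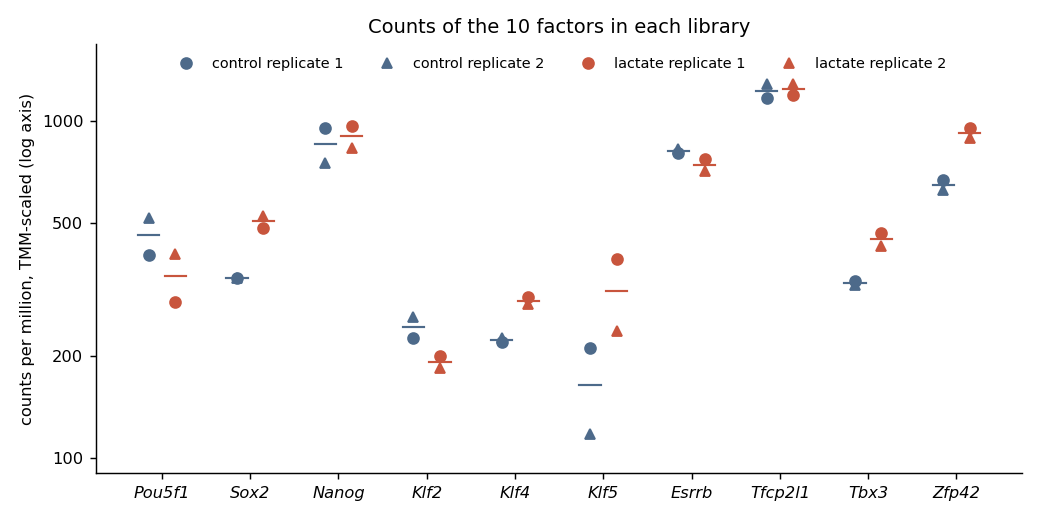
CPM (scaled by TMM, log axis) of the 10 genes in each library, with circles for replicate 1, triangles for replicate 2 and a bar for the group mean, control in blue and lactate in red. The lactate libraries lie above the control libraries for Sox2, Klf4, Klf5, Tbx3 and Zfp42, below them for Klf2 and Esrrb, and among them for Pou5f1, Nanog and Tfcp2l1.

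The gene counts summed to between 18067562 and 19077885 per library. The mitochondrial share of these counts was 5.48% in control replicate 1 and 5.72% in lactate replicate 1, but 2.43% and 2.82% in the replicates numbered 2, so this share followed the replicate number and not the treatment. The biological coefficient of variation over all genes was 15.9%. The 10 genes were abundant in these cells. By the mean FPKM of the control libraries, Pou5f1 ranked 140, Nanog 199 and Sox2 605 among the 55335 genes, and Klf5, the lowest of the 10, ranked 2047, so the label of ESCs was borne out by its defining markers. In such bulk samples, fewer cells that express a gene and less RNA of it per cell cannot be told apart.

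The promoters shown are those of the factors with the smallest p-values, chosen so that the motifs of the network can be read in them. RefSeq promoter windows on GRCm38.p6 were found for 8 of the 10 genes, and among the 4 with the smallest p they were found for Sox2, Zfp42 and Klf4. Each line gives the 250 bases before the RefSeq transcript start, 5′ to 3′ on the strand of the gene, with matches to the searched motifs in capitals. The windows are chr3:34649745-34649994 on the plus strand for Sox2, chr8:43307010-43307259 on the minus strand for Zfp42 and chr4:55532476-55532725 on the minus strand for Klf4.
Sox2: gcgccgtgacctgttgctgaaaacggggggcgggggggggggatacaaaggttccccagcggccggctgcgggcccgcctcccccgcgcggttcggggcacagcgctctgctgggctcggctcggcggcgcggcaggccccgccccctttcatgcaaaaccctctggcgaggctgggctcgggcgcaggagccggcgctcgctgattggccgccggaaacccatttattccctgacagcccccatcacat
Zfp42: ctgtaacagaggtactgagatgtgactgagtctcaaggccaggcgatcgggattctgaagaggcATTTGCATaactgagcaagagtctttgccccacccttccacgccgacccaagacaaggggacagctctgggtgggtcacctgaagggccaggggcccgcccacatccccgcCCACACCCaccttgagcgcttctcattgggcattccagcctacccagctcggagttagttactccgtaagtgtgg
Klf4: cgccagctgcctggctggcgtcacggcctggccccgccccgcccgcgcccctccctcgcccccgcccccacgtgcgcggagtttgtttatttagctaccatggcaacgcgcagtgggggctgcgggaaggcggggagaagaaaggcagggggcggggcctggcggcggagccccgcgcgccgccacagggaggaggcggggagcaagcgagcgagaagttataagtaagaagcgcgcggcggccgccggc
The motifs were the octamer ATGCAAAT bound by POU proteins (in 1.6% of 32851 promoter windows), the SOX motif CATTGT (10.7%), the KLF motif GGGNGTGG (15.9%), the Esrrb motif TCAAGGTCA (0.387%), the STAT motif TTCNNNGAA (7.02%), the TCF motif CTTTGAT (3.21%), the T-box motif AGGTGTGA (1.12%) and the YY1 motif ATGGCGG (2.21%), each searched on both strands. The Zfp42 window held an octamer at position −186 from the transcript start and a KLF match at −75, both on the other strand. The windows of Sox2 and Klf4 held no match, which says only that these letters are not there. The RefSeq start of Sox2 lies 410 bases upstream of its start in GENCODE M21.

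The core factors were Pou5f1, Sox2 and Nanog. Pou5f1 lies at chr17:35506018-35510772 on the plus strand (GRCm38, GENCODE M21) and encodes Oct4, the POU factor that ESCs cannot do without. Its CPM was 399.6 and 517 in control and 289.7 and 403 in lactate. Lactate replicate 1 was the lowest and control replicate 2 the highest. Control replicate 1 and lactate replicate 2 stood close together, so the groups overlapped. Within each replicate number the lactate library was below the control library. The mean was 458 ± 83.1 (SD, n = 2) in control and 346 ± 80.3 (n = 2) in lactate, with a log2 fold change of −0.40 (SE 0.21, 95% interval −0.92 to 0.12) and an adjusted p of 0.318 (edgeR).

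Sox2, the partner of Oct4 on DNA, is a gene at chr3:34650405-34652461 on the plus strand. Its CPM was 341 and 343 in control and 483 and 525 in lactate. Both lactate libraries were above both control libraries, which were almost equal to each other. The mean went from 342 ± 1.13 to 504 ± 29.4 (SD, n = 2 each), 1.47-fold, with a log2 fold change of 0.56 (SE 0.14, interval 0.23 to 0.89) and an adjusted p of 0.0888 in edgeR. Sox2 had the smallest p of the 10 genes, and 21.4% of all genes tested had a change of at least its size.

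Nanog, a homeodomain protein that keeps ESCs self-renewing, lies at chr6:122707489-122714633 on the plus strand. Its CPM was 956 and 753 in control and 971 and 836 in lactate. The replicates of each group differed by more than the group means, and the groups overlapped. The log2 fold change was 0.08 (SE 0.18, interval −0.36 to 0.52, adjusted p = 0.838 in edgeR, n = 2 each).

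Since Pou5f1 and Sox2 lay on opposite sides of 0, their ratio was taken within each library, on the per-length FPKM scale of RSEM. A pair picked for opposite changes tends to separate in its ratio, so the ratio is not a result apart from those changes. Sox2 stood at 0.261 and 0.199 of the level of Pou5f1 in control and at 0.429 and 0.411 in lactate. Both lactate libraries were above both control libraries, with means of 0.230 ± 0.0438 and 0.420 ± 0.0126 (SD, n = 2 each). The ratio of Nanog to Pou5f1 was 0.841 and 0.503 in control and 0.957 and 0.737 in lactate, and the groups overlapped. The ratios of Klf4, Klf5, Tbx3, Zfp42 and Tfcp2l1 to Pou5f1 did not overlap between the groups either, and those of Klf2 and Esrrb overlapped. That of Tfcp2l1, whose own CPM hardly differed, was 0.212 and 0.182 in control and 0.248 and 0.250 in lactate. The separation was thus not particular to Sox2, and all of these ratios share Pou5f1 as denominator. No test was run on these ratios.

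The counts of Pou5f1 carry a limit of their own. In GENCODE M21 its exons share 317 bases with the antisense gene Gm19553, whose raw counts were 3961, 5625, 3209 and 4137 in control 1, control 2, lactate 1 and lactate 2, or between 52.0% and 59.6% of those of Pou5f1. RSEM gave Gm19553 at most 1.66 expected counts in any library. Pou5f1 was the only one of the 10 genes with fewer raw counts than RSEM expected counts (0.687 to 0.726 of them), where the median ratio over 14289 genes was 1.17 to 1.19. With the counts of Gm19553 added to Pou5f1, an alternative chosen after seeing the data, the log2 fold change was −0.42 (SE 0.21, adjusted p = 0.279 in edgeR). Whether the counting used the strand is not given in the sources used here. RSEM's transcript length of Pou5f1 was also shorter in lactate replicate 1, at 1192 bases. In the other libraries it was 1359 to 1361. The shorter length raises the FPKM of Pou5f1 in lactate replicate 1 and moves the ratios above.

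The KLF factors were Klf2, Klf4 and Klf5, none of them called, and differences between them were not tested. Klf2 lies at chr8:72319033-72321656 on the plus strand, and its CPM was 227 and 262 in control and 199.95 and 185 in lactate. It was lower in both lactate libraries than in both control libraries, at 0.788-fold, with means of 244 ± 24.4 and 192 ± 10.6 (SD, n = 2 each). Its log2 fold change was −0.34 (SE 0.14), with an adjusted p of 0.216 in edgeR, and its 95% interval ran from −0.69 to just under 0.

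Klf4, a reprogramming factor, lies at chr4:55527143-55532466 on the minus strand, and had a CPM of 221 and 227 in control and 299 and 286 in lactate. Both lactate libraries were higher, and the replicates of each group lay close together, at 224 ± 4.29 and 292 ± 9.78 (SD, n = 2 each). The log2 fold change was 0.39 (SE 0.13, interval 0.07 to 0.70), or 1.31-fold, with an adjusted p of 0.153 in edgeR.

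Klf5 lies at chr14:99298691-99315036 on the plus strand and acts in the trophectoderm as well as in ESCs. Its CPM was 211 and 118 in control and 390.0 and 238 in lactate. It was the most variable of the 10 genes: replicate 2 was far below replicate 1 in both groups, and the lower lactate library was only a little above the higher control library. The means were 164 ± 66.1 and 314 ± 108 (SD, n = 2 each), a log2 fold change of 0.93 (SE 0.34, interval 0.11 to 1.75) or 1.91-fold, with an adjusted p of 0.175 in edgeR. Of all genes tested, 7.58% had a change of at least this size. DESeq2 gave Klf5 a log2 fold change of 0.91 and an adjusted p of 0.0399, under the threshold but short of 2-fold. Without lactate replicate 2, Klf5 was called at a log2 fold change of 1.24, while without lactate replicate 1 it stood at 0.50, and without control replicate 1 and 2 at 1.40 and 0.57. With a replicate block in the edgeR fit, the log2 fold change of Klf5 was 0.95 (SE 0.06, adjusted p = 5.72e-10). In that fit 8297 of the 18661 genes had an adjusted p under 0.05. The labels do not say that a replicate number marks a shared batch. The mitochondrial share of the libraries, given above, differs between the replicate numbers in the same way as Klf5, and its part in the result was not tested.

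On the FPKM scale, the 3 KLF genes together came to 272 and 279 in control and 363 and 297 in lactate. Klf2 made up 50.3% and 59.0% of that sum in control and 37.0% and 41.4% in lactate. Klf5 made up 25.3% and 14.2% in control and 36.4% and 28.1% in lactate, and Klf4 24.4% and 26.8% against 26.7% and 30.5%. The groups did not overlap for the share of Klf2, which was lower with lactate, or that of Klf5, which was higher, and they overlapped for Klf4. These shares sum to a whole, so they are not independent of each other.

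**Figure D2:**
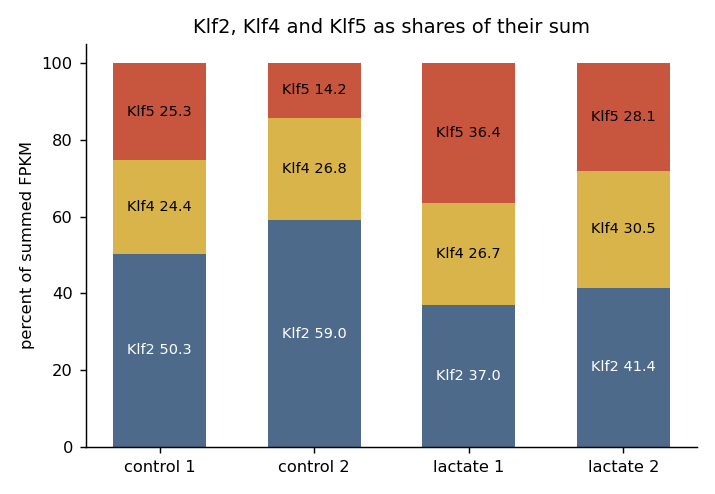
Share of Klf2, Klf4 and Klf5 in their summed FPKM (percent, bars starting at 0) in each of the 4 libraries. Klf2 was the largest share in every library, at 50.3% and 59.0% in control and 37.0% and 41.4% in lactate. In lactate replicate 1 it was only a little above Klf5, at 36.4%.

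The other naive factors were Esrrb, Tfcp2l1, Tbx3 and Zfp42. Esrrb, an orphan nuclear receptor and target of Nanog and of the GSK3 branch, lies at chr12:86361117-86521628 on the plus strand. Its CPM was 808 and 826 in control and 776 and 711 in lactate. The lactate libraries were lower without overlap, but by little, with means of 817 ± 13.2 and 743 ± 45.8 (SD, n = 2 each), a log2 fold change of −0.14 (SE 0.14, interval −0.48 to 0.21) and an adjusted p of 0.619 in edgeR.

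Tfcp2l1, a CP2 family protein downstream of Stat3, lies at chr1:118627945-118685168 on the plus strand. Its CPM was 1171 and 1289 in control and 1199.8 and 1292 in lactate. The groups overlapped almost fully, and the log2 fold change of 0.02 (SE 0.15, interval −0.35 to 0.39, adjusted p = 0.957 in edgeR, n = 2 each) was the nearest to 0 of the 10 genes. Of all genes tested, 96.3% had a change of at least its size.

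Tbx3, a T-box protein of the LIF response, lies at chr5:119670669-119684724 on the plus strand. Its CPM was 336 and 326 in control and 465 and 426 in lactate. Both lactate libraries were above both control libraries, with means of 331 ± 7.22 and 445 ± 27.1 (SD, n = 2 each), a log2 fold change of 0.43 (SE 0.14, interval 0.10 to 0.76) and an adjusted p of 0.140 in edgeR.

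Zfp42 encodes Rex1, a zinc finger protein widely used as a marker of naive cells, and lies at chr8:43295063-43306980 on the minus strand. Its CPM was 668 and 623 in control and 959 and 893 in lactate. Both lactate libraries were above both control libraries by more than the replicates differed, with means of 645 ± 31.3 and 926 ± 46.7 (SD, n = 2 each). The log2 fold change was 0.52 (SE 0.14, interval 0.17 to 0.87), or 1.43-fold, with an adjusted p of 0.112 in edgeR. Its FPKM stood at 0.486 and 0.426 of that of Pou5f1 in control and at 0.775 and 0.822 in lactate.

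**Figure D3:**
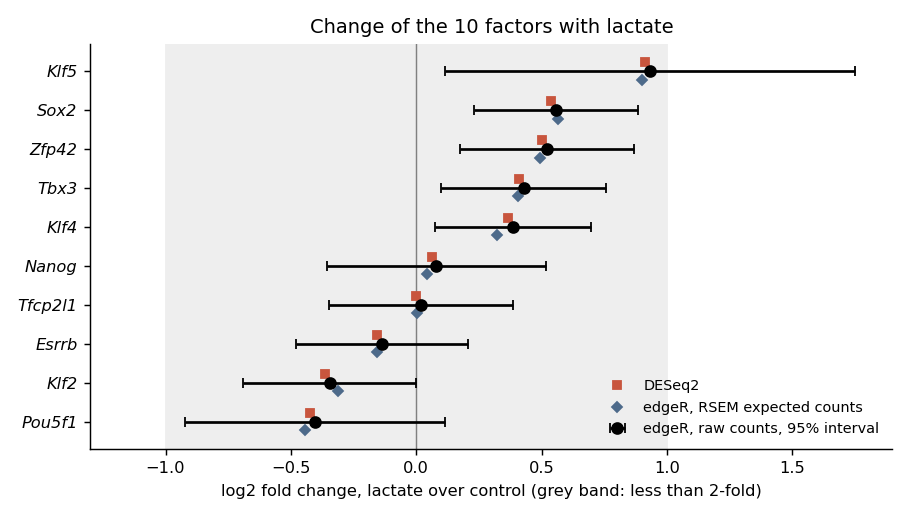
Log2 fold change of the 10 genes, lactate over control, with the 95% interval of edgeR on raw counts (black), and the values from DESeq2 (red) and from edgeR on RSEM expected counts (blue); the grey band marks changes under 2-fold. The interval of Klf5 is the only one that leaves the band, and those of Pou5f1, Nanog, Tfcp2l1 and Esrrb cross 0.

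Sequence shared with other genes could also touch the counts. Of the 50-base stretches in the transcripts, those found in transcripts of another gene made up 10.1% for Pou5f1, 8.52% for Zfp42 (all with its pseudogene Zfp42-ps1) and 4.61% for Nanog, and at most 1.01% for each of the other 7 genes. The raw counts of Zfp42 were 1.74 and 1.41 times the RSEM expected counts in control and 1.76 and 1.41 times in lactate, so this ratio followed the replicate number. Tbx3 shares 115 exonic bases with the antisense gene Tbx3os1, which had 135 and 137 counts in control and 224 and 217 in lactate, few beside those of Tbx3.

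Ordered by level, which is given per length as mean FPKM (± SD, n = 2), the control cells had Pou5f1 at 707 ± 151, Nanog at 457 ± 67.2, Zfp42 at 319 ± 39.0 and Esrrb at 267 ± 5.30, none overlapping its neighbour. Sox2 (159 ± 3.78), Klf2 (151 ± 19.9) and Tfcp2l1 (138 ± 14.9) followed, each overlapping the next in the order. Tbx3 (75.4 ± 11.8), Klf4 (70.6 ± 6.19) and Klf5 (54.2 ± 20.7) were lowest, and again overlapped from one to the next. With lactate the order was Pou5f1, Nanog, Zfp42, Esrrb, Sox2, Tfcp2l1, Klf2, Tbx3, Klf5 and Klf4. There Zfp42 at 477 ± 66.1 overlapped Nanog at 501 ± 43.3, and Sox2 at 250.2 ± 16.9 overlapped Esrrb at 255 ± 14.2, pairs that had stood apart in control. The places that changed, Tfcp2l1 past Klf2 and Klf5 past Klf4, lay between genes that overlapped in at least 1 group.

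Set beside the other genes of their families, Pou5f1, Sox2, Klf2, Esrrb, Tfcp2l1 and Zfp42 stood above all of them in both control libraries. Pou5f1 compared with 19.2 FPKM for Pou2f1, the next POU gene, and Sox2 with 11.7 for Sox13. Esrrb stood beside 13.05 for Esrra, and Zfp42 beside 23.2 for Yy1, the family from which it derives. Tfcp2l1 was above Ubp1 at 53.9. Klf2, at 151, was above Klf10 at 71.35 and Klf3 at 65.8. Klf4, Klf5 and Tbx3 were less set apart. Klf10 and Klf3 stood at the level of Klf4 and Klf5. Mga, which carries a T-box within a much larger protein, at 73.0 stood at that of Tbx3. In the edgeR fit none of these relatives was called. At an unadjusted p under 0.05 the numbers higher and lower with lactate were 0 and 1 of 8 tested POU genes, 2 and 2 of 11 SOX, 3 and 2 of 12 KLF, 2 and 0 of 5 CP2 and grainyhead, 0 and 1 of 10 T-box genes, and 0 of the tested ERR and YY1 genes. DESeq2 called 1 POU gene. Over all genes tested, 11.7% were higher and 11.4% lower at that unadjusted p, and DESeq2 called 2.11% of those it gave an adjusted p.

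**Figure D4:**
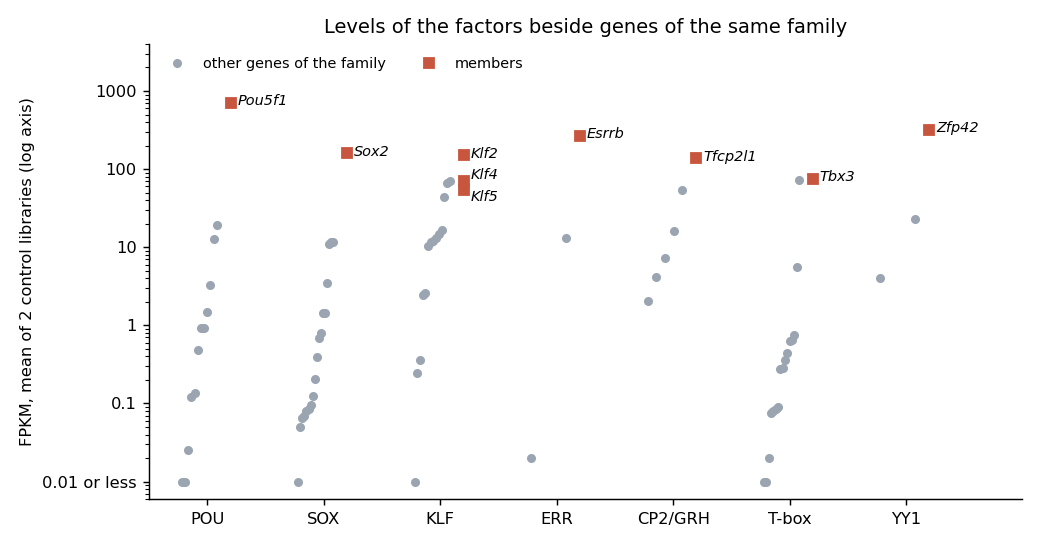
Mean FPKM of the 2 control libraries (log axis) for 9 of the 10 factors (squares) and the other genes of the same protein family (circles), with values at or under 0.01 drawn at 0.01. Pou5f1, Sox2, Klf2, Esrrb, Tfcp2l1 and Zfp42 stand above all other genes of their families. Klf3 and Klf10 reach the level of Klf4 and Klf5, and Mga that of Tbx3.

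Genes around the 10 factors were counted in the same way. Over all genes tested, edgeR called 0.9%, and at an unadjusted p under 0.05, 11.7% were higher and 11.4% lower. DESeq2 called 2.11% of the genes it gave an adjusted p, and 4.99% had an adjusted p under 0.05 at any fold. Of 19 other pluripotency genes, none was called by edgeR or DESeq2, 3 were higher and 2 lower at an unadjusted p under 0.05, and the median log2 fold change was 0.21. Sall4, a zinc finger partner of Oct4, had 169.7 and 159 CPM in control and 229.6 and 205 in lactate (log2 fold change 0.40, SE 0.14, adjusted p = 0.156 in edgeR). Spp1 was at 0.38, Utf1, a chromatin factor of ESCs, at −0.54 and Prdm14, which represses FGF signaling genes, at −0.33.

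Of the 12 genes of the LIF, Jak and Stat3 branch, none was called by edgeR or DESeq2, with 2 higher and 1 lower at an unadjusted p under 0.05 and a median of 0.11. Lifr, the receptor of LIF, had 76.2 and 63.7 CPM in control and 119 and 108 in lactate, a log2 fold change of 0.70 (SE 0.15, adjusted p = 0.0694 in edgeR). It was the 1 gene of the list with an adjusted p under 0.05 in DESeq2, 0.0292 at a log2 fold change of 0.68. The co-receptor Il6st was at 0.29, and the Stat3 targets Pim1 and Bcl3 were at 0.42 and −0.42.

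Of the GSK3 and beta-catenin branch, 13 of 14 genes were tested, none was called by edgeR, 3 were higher and 2 lower at an unadjusted p under 0.05, and DESeq2 called 3 (Cdx1, Tcf7 and Notum). The median was −0.10. Targets of the branch stood on both sides of 0. Cdx1, a homeobox target, had 9.02 and 11.5 CPM in control and 23.5 and 29.96 in lactate (log2 fold change 1.38, SE 0.21, adjusted p = 0.0502 in edgeR). Notum, a secreted Wnt inhibitor, had 9.43 and 11.7 against 4.90 and 4.87 (−1.11, SE 0.20, adjusted p = 0.0578), and Tcf7 was at −0.98 and Axin2 at 0.45.

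The FGF and ERK branch held the only edgeR calls among the lists around the 10 factors. Of its 14 genes, 2 were called and upregulated, where 0.9% of all genes tested were called in either direction. Both are inhibitors of receptor tyrosine kinase signaling that are themselves induced by ERK. Spry2 had 33.0 and 41.5 CPM in control and 91.8 and 109.9 in lactate, and rose by a log2 fold change of 1.44 (SE 0.17, adjusted p = 0.0406 in edgeR). Spry4 had 7.23 and 8.85 in control and 22.06 and 22.05 in lactate, and rose by 1.45 (SE 0.18, adjusted p = 0.0406). In both, the lactate libraries lay far above the control libraries. Without control replicate 1 neither was called, at 1.26 (adjusted p = 0.0652) and 1.30 (adjusted p = 0.0886), and limma-trend on FPKM called neither. On RSEM expected counts the call of Spry2 was also lost (adjusted p = 0.0525 in edgeR). Dusp6, a phosphatase of ERK, was at 1.09 with an adjusted p of 0.0553 in edgeR, and DESeq2 called 3 genes of the list. The list as a whole had 4 genes higher and 2 lower at an unadjusted p under 0.05, with a median of −0.08. At any p, 6 of the 14 were higher and 8 lower. Among the lower were Etv4 at −0.28, Etv5 at −0.18 and Egr1, at a low level, at −0.57. Each had an unadjusted p above 0.05 in edgeR, and they were named after their values were seen. Both groups received the MEK inhibitor.

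Of 21 chromatin coregulators that act with the network, none was called by edgeR or DESeq2, and at an unadjusted p under 0.05 there were 6 lower (11.4% of all genes) and 1 higher (11.7% of all genes). The median was −0.08, with 8 of the 21 higher and 13 lower at any p. DESeq2 gave 3 (Chd4, Nacc1 and Smarca4) an adjusted p under 0.05 at any fold. Chd4, the remodeler of the NuRD complex, had 776 and 794 CPM in control and 447 and 448 in lactate, a log2 fold change of −0.81 (SE 0.14, adjusted p = 0.0526 in edgeR). Smarca4, the ATPase of the BAF complex, was at −0.78 (adjusted p = 0.0578), Nacc1, a Nanog-binding protein, at −0.74 (adjusted p = 0.0578) and Kdm1a at −0.43. These 4 had the smallest p-values of the list. The gene that was higher was Rif1, a telomere and replication factor, at 0.47 (adjusted p = 0.179), named after its value was seen.

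Genes of the exit from the naive state and of later states had no call by edgeR or DESeq2. Of 8 genes of the exit, 1 was higher and 1 lower at an unadjusted p under 0.05, with a median of −0.21, and Tcf7l1, the repressor that GSK3 inhibition relieves, was at −0.49 with overlapping groups. Of the formative and primed genes, 6 of 7 were tested, 1 was higher (Otx2, 0.68, adjusted p = 0.0814 in edgeR) and 2 were lower (Dnmt3b, −0.59, adjusted p = 0.0688, and Foxd3, −0.63, adjusted p = 0.105), and Fgf5 was too low to be tested. DESeq2 gave Dnmt3b an adjusted p of 0.0409 at any fold. Of 11 early lineage genes, 7 were tested and 1 was higher, Gata3 at 1.24 (adjusted p = 0.115), from 1.21 and 1.159 CPM in control to 3.55 and 2.08 in lactate.

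**Figure D5:**
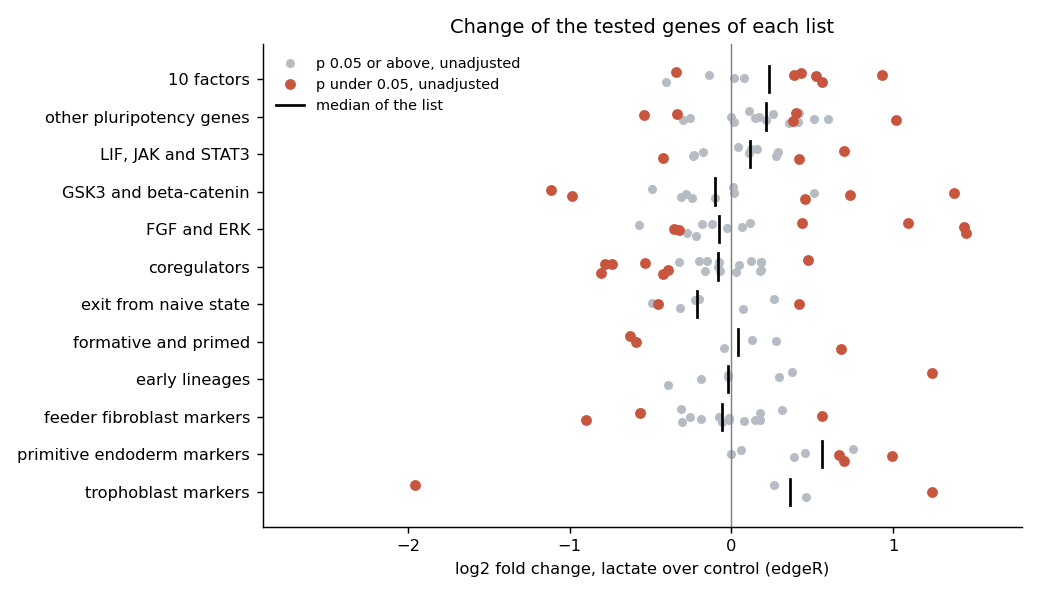
Log2 fold change, lactate over control (edgeR), of each tested gene of the 10 factors and of the lists named in the text, with red points for an unadjusted p under 0.05 and a black bar for the median of the list. The medians lie between −0.21 for the exit from the naive state and 0.56 for the primitive endoderm markers, and that of the 10 factors is 0.23.

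Markers of other cells that such cultures can hold were measured beside the 10 genes. Over all genes tested, 11.7% were higher and 11.4% lower at an unadjusted p under 0.05. The libraries of the groups did not overlap for 52.9% of single genes. The 17 feeder fibroblast markers were all tested and summed to 749 and 1054 CPM of the gene total, with no TMM scaling, in control and 799 and 916 in lactate, and none was at 0. None was called by edgeR or DESeq2, 1 was higher and 2 were lower at an unadjusted p under 0.05, and the groups overlapped. DESeq2 gave Col3a1 an adjusted p of 0.0397 at a log2 fold change of −0.92. The 10 primitive endoderm markers, of which 8 were tested, summed to 234 and 289.9 in control and 349 and 382 in lactate without overlap. Of these, 3 were higher at an unadjusted p under 0.05 and none lower, with a median of 0.56, none was called by either tool, and Lama1, which made up much of the sum, was at 0.69 (adjusted p = 0.0684 in edgeR and 0.0214 in DESeq2). The 7 trophoblast markers, 4 of them tested, summed to 95.9 and 82.9 in control and 113.5 and 103 in lactate, also without overlap. Cdx2, Elf5 and Hand1 were too low to be tested. Tfap2c, at 89.2 and 74.9 CPM (TMM-scaled) in control and 105.8 and 91.3 in lactate, made up most of each sum. Its unadjusted p was 0.134 in edgeR. Of the 4, 3 were higher and 1 lower at any p, with a median of 0.36, and none was called by edgeR. Gata3 was at 1.24, as above, and Ascl2 at −1.96 (adjusted p = 0.0543 in edgeR, called by DESeq2). The part of these cells in the results for the 10 genes was not tested.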

How the data were processed

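RNA-seq of 2 control and 2 lactate-treated libraries was used. The authors trimmed reads with cutadapt 1.16, mapped them with STAR to the mouse genome with GENCODE release 23 of the mouse series (M23), and deposited a table of raw gene counts (with 1153 families of transposable elements, 7.36% to 9.41% of all its counts, left out here) and, per library, expected counts, TPM and FPKM made by the authors with RSEM. Whether counting used the strand is not given in the sources used here. No column of the deposited tables was of an unknown sample.

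Raw counts were tested in R 4.3.3 with edgeR 4.0.16 (quasi-likelihood, legacy form, filterByExpr, TMM, no replicate term) over the 18661 genes kept, with p-values adjusted by Benjamini-Hochberg over all of them. DESeq2 1.42.0, limma 3.58.1, other scalings and filters, RSEM expected counts (rounded), a replicate block and leaving out each library were alternatives. The SE was taken as the size of the log2 fold change over the square root of F, and 95% intervals used the t distribution with the fit's total degrees of freedom. With 2 libraries a group, a two-sided exact permutation test cannot go below p = 0.333, so no single value was tested that way. Replicates of a group differed by more than counting noise (chi-square per degree of freedom 32.2 in control and 31.4 in lactate), so all 4 libraries were kept as separate samples.

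Positions and overlaps came from GENCODE M21 (GRCm38), where 54587 of 55335 gene identifiers had the same version, and promoter windows from RefSeq (GRCm38.p6). From each other list the text could name the called genes and up to 4 genes with the smallest p, given a change only where p was under 0.1, and from each family up to 3 genes with the highest FPKM. Fgf5, Cdx2, Elf5 and Hand1 were named as untested. Etv4, Etv5, Egr1, Rif1 and Dppa3 were named outside this rule, after their values were seen. The 10 genes and all lists were chosen with earlier results of these data known.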

Additional observations from a re-analysis of the deposited data

How the results depend on the processing

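The number of genes called, 168, depended on the fit: it was 358 with DESeq2, 807 with no filter on low counts, 1156 with the replicate block, 44 on the RSEM expected counts, and 0 with limma-trend on log2(FPKM + 1) and on log2(FPKM + 0.1), where 2914 and 2954 genes had an unadjusted p under 0.05. With library totals alone 108 genes were called up and 40 down, against 103 and 65. Leaving out 1 library gave 84 to 869 calls (84 without control replicate 1, 315 without control replicate 2, 642 without lactate replicate 1 and 869 without lactate replicate 2), where the lone library of a group is assumed to vary like the other group. The number of the 10 factors called was 0 under every alternative but one: leaving out 1 library gave 0 to 1, the 1 being Klf5 without lactate replicate 2. The adjusted p of Klf5 was 0.0211 with no filter.

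The labels give both groups the same replicate numbers but do not say that a number marks a shared batch, and with 2 pairs the deviations of same-numbered libraries correlated at r = 0.686 over 18661 genes. With the replicate block in edgeR, 7 of the 10 factors had an adjusted p under 0.05, as did 8297 of the 18661 genes. Of the 7, Sox2, Zfp42, Tbx3, Klf4 and Klf5 were higher with lactate, and Pou5f1 and Klf2 were lower. Still 0 of the 10 passed 2-fold.

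The direction changed for 2 of the 10 factors, both near 0. Nanog ranged from −0.087 to 0.25 over the fits without 1 library. Tfcp2l1 was at −0.000693 with DESeq2, at −0.025 with no filter and from −0.067 to 0.084 without 1 library. The other 8 factors kept their direction under all alternatives run. The cause of these shifts was not tested. Of the values of other named genes under the alternatives, 565 kept direction and side of the threshold, 36 came to pass it and 7 lost it, all 7 of Spry2 or Spry4 (on RSEM expected counts for Spry2 at an adjusted p of 0.0525, and with limma-trend and without control replicate 1 for both).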

Other observations

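Transcripts that lie over or beside the 10 factors were also counted, and were looked at after the values of the factors had been seen. Sox2ot, a long noncoding RNA in whose gene Sox2 lies on the same strand with no shared exonic base, had 36 and 31 counts in control and 99 and 72 in lactate, with a log2 fold change of 1.27 (SE 0.29, n = 2 each) and an adjusted p of 0.0812 in edgeR. Tbx3os1, antisense to Tbx3, was at 0.62 (SE 0.18) with an adjusted p of 0.121, and Gm19553, antisense to Pou5f1, at −0.46 (SE 0.18) with an adjusted p of 0.204. In each of these 3 the control and lactate libraries did not overlap, as for 52.9% of all genes tested. Gm23497, a small nuclear RNA that shares 130 exonic bases with Tfcp2l1 on the same strand, was at −0.02 (SE 0.24) with an adjusted p of 0.976, and its groups overlapped. Tbx3os1, Gm19553 and Gm23497 share exonic bases with their factor. Reads from the overlap may have been counted for either gene, for both or for neither, which was not tested.

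Dppa3, a maternal factor that is patchily expressed in ESCs, had the largest log2 fold change of the other pluripotency genes, 1.02, with a p of 0.0473 and an adjusted p of 0.210 in edgeR, and was named after its value was seen. Its mean FPKM was 4.41 in control and 11.5 in lactate.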
